A study of Homo sapiens with 20 samples.

Results

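The genes described here are the 44 proteasome genes of the count table, chosen by symbol (PSMA to PSMG followed by a number, without the inducible beta subunits PSMB8 and PSMB9) and by a minimum of 50 counts summed over 20 libraries. Of 46 symbols that match, PSMA8 with 2 counts in all and PSMB11 with 1 fell under the minimum. All 44 were among the 16698 genes tested, out of 31339 genes with a count. They comprise 7 alpha and 8 beta subunits, 6 ATPases, 14 non-ATPases, 4 activators, 1 inhibitor and 4 chaperones. Counted by symbol, the core particle (PSMA, PSMB) thus has 15 genes and the regulatory particle (PSMC, PSMD) 20.

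The proteasome is the barrel-shaped protease complex that degrades proteins tagged with ubiquitin. Its core particle stacks rings of alpha subunits (PSMA genes), which gate the barrel, on rings of beta subunits (PSMB genes), which include the protease sites. Its regulatory particle holds the unfolding ATPases (PSMC genes) and non-ATPase subunits (PSMD genes), some of which bind or trim ubiquitin. PSMD genes encode subunits of the lid and of the base, such as PSMD2, and also the base assembly factors PSMD5, PSMD9 and PSMD10. All PSMC and PSMD genes are counted here as the regulatory particle, and the lid subunit SHFM1, outside the symbols chosen, is not. Alternative caps (PSME genes), an inhibitor (PSMF1) and assembly chaperones (PSMG genes) complete the set. MTOR, a kinase that promotes protein synthesis and growth, is known to influence proteasome amount, partly through the transcription factor NFE2L1, which drives proteasome genes.

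Total RNA was sequenced from 5 established human cancer lines, each left untreated or given torkinib (PP242), an ATP-competitive MTOR kinase inhibitor, for 72 h, with 2 libraries per group. The lines were 94T778 (well differentiated liposarcoma, 10 µM), A375 and SKMEL28 (melanoma, 4 µM each), AU565 (breast cancer, 4 µM) and SKBR3 (breast cancer, 0.8 µM). Per the labels the doses stopped the cell cycle without loss of viability, and no duration is stated for the untreated cells. Each line is a single established line, and dose differs with line except among A375, SKMEL28 and AU565. Whether SKBR3 and AU565 come from separate donors was not checked, so they are not to be read as independent breast tumours.

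Libraries held 4040023 to 9737903 counted reads, of which the 44 genes took 0.396 to 0.686%. The melanocyte marker list summed to 7529 to 7705 CPM (counts scaled to a common library total) in untreated SKMEL28 and to 11430 to 11707 CPM with torkinib, but to 534 to 635 CPM in A375. The breast list summed to 23894 to 25317 CPM in untreated SKBR3 and 14290 to 14424 CPM with torkinib, to 17602 to 17631 CPM in untreated AU565 and 10037 to 10706 CPM with torkinib, and to at most 517 CPM in the other lines. The part of these marker changes in the proteasome values was not tested. Genes of the 12q amplicon that marks 94T778 summed to 11181 to 11346 CPM there untreated and to 195 to 805 CPM in the other untreated lines, with 805 CPM in A375 replicate 1 and 649 CPM in A375 replicate 2. The untreated SKBR3 replicates differed more (chi-square per gene 12.2) than any other pair (1.37 to 3.37). The cell-cycle list had lower sums with torkinib in every line, from 1270 to 1291 CPM to 267 to 335 CPM in A375 and from 1208 to 1210 CPM to 69 to 76 CPM in AU565, and the part of that in the proteasome values was not tested. Levels are relative to all counted reads, so a change of cell number or of total RNA per cell cannot be read from them. A lower level thus means lower relative to other genes.

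Proteasome genes were lower with torkinib. On the average of the 5 lines 38 of 44 were called lower and 3 higher by edgeR's quasi-likelihood test at an adjusted p of 0.05, and the median log2 change was -0.34. Over all genes tested, 28.1% were called lower and 28.4% higher, with a median of -0.01. The genes called higher were PSMB10, PSMB4 and PSME1, and those not called were PSMD4, PSMF1 and PSMG4. By role the lower calls covered 7 of 7 alpha subunits, 6 of 8 beta subunits, 6 of 6 ATPases, 13 of 14 non-ATPases, 3 of 5 activators and inhibitor, and 3 of 4 chaperones. Single changes ran from -0.93 for PSMB6 to 0.61 for PSMB10.

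The size of the fall differed between lines. In AU565, 38 of the 44 were called lower and 2 higher (median -0.69), against 28.6% lower and 26.9% higher of all genes. SKBR3 had 32 lower and 2 higher (median -0.42, background 26.7% and 24.6%). SKMEL28 had 28 lower and 1 higher (median -0.36, background 23.7% and 20.4%). In 94T778, 23 were lower and 2 higher (median -0.24, background 23.8% in each direction). A375 had 12 lower (27.3% of the genes, near the background of 24.3%) and 3 higher (6.82%, background 18.5%), with a median of -0.08. Higher calls were PSMB4 and PSMG4 in 94T778, PSMB10, PSMD4 and PSME3 in A375, PSMF1 in SKMEL28, PSMB10 and PSME1 in SKBR3, and PSMB4 and PSMB10 in AU565. The A375 and 94T778 counts rest on scaling and on single libraries. Scaled to library totals alone, A375 gave 6 lower and 6 higher and 94T778 gave 13 lower and 4 higher. A375 gave 5 lower without its untreated replicate 1 and 7 lower and 0 higher without its torkinib replicate 2, and it gave 6 higher without SKBR3 untreated replicate 1 or 2.

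**Figure D1:**
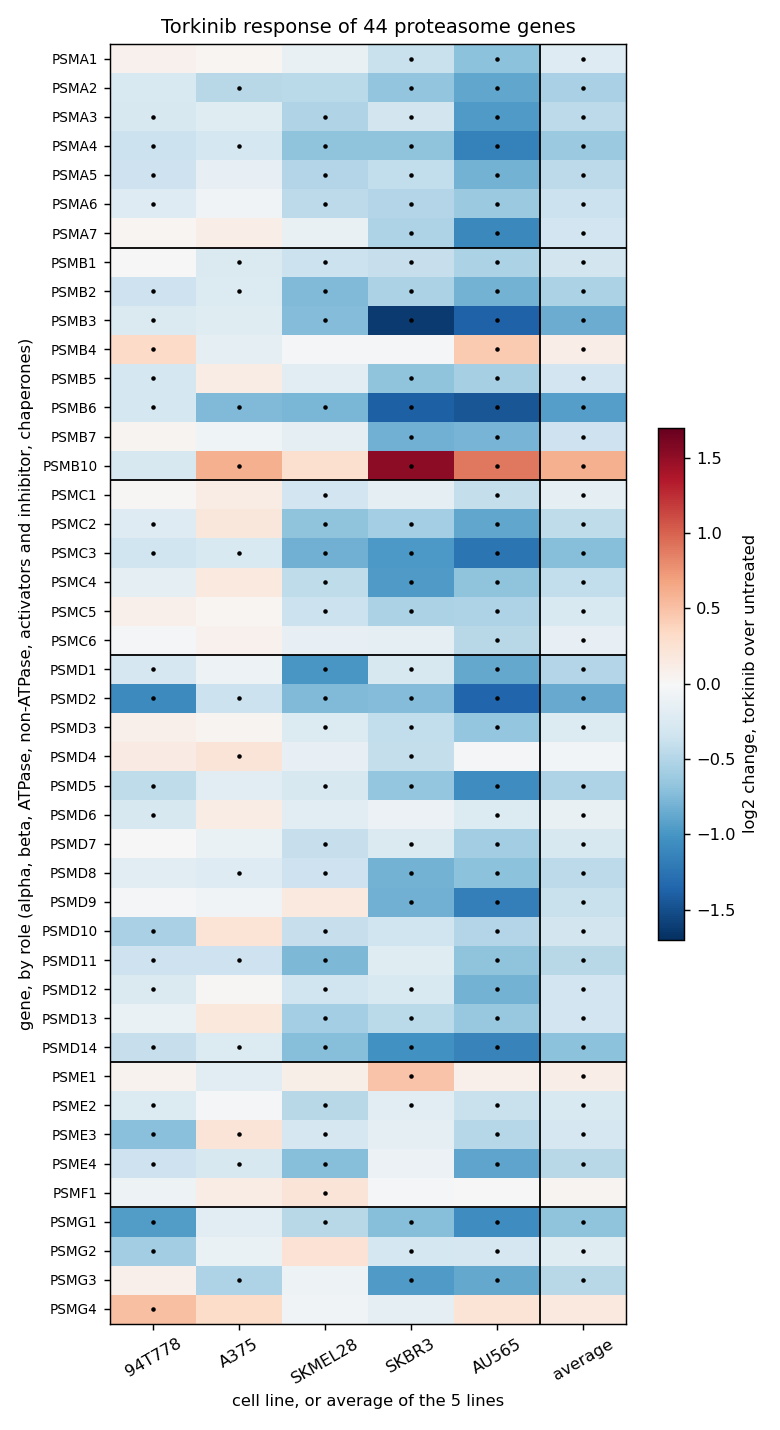
Log2 change with torkinib (colour scale, blue lower and red higher) of the 44 proteasome genes (rows, by role) in each line and on the average of the 5 lines (columns); a black dot marks a change called by edgeR at an adjusted p of 0.05. AU565 has 38 dots on lower changes and A375 has 12, and PSMB10 is the reddest row, reaching 1.52 in SKBR3.

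Single libraries gave a like picture. Both torkinib libraries lay below both untreated ones for 37 genes in SKMEL28, 24 in A375, 30 in 94T778, 38 in AU565 and 38 in SKBR3, where 34.2 to 37.0% of all genes did so. Both lay above for 5, 13, 6, 3 and 2 genes in that order of lines, against 32.1 to 37.5% of all genes. Summed over the 44 genes, untreated levels were 5518 and 5562 CPM in SKMEL28, 5270.5 and 5171 in A375, 6321 and 6174 in 94T778, 6623 and 6899.7 in AU565 and 7283 and 7393 in SKBR3. With torkinib the sums were 4210.5 and 4156 CPM in SKMEL28, 4983 and 4926 in A375, 5255 and 4979 in 94T778, 4377 and 4456 in AU565 and 5621 and 5526 in SKBR3. All 10 torkinib libraries were below the untreated libraries of their line, and A375 had the smallest gap. Per gene, the lowest change fell in AU565 for 24 genes and the highest in A375 for 25. Called lower in all 5 lines were 6 genes (13.6%), namely PSMA4, PSMB2, PSMB6, PSMC3, PSMD2 and PSMD14, against 4.62% of all genes. No call was made in the lower direction in any line for 5 genes (11.4%), PSMB4, PSMB10, PSME1, PSMF1 and PSMG4, against 43.3% of all genes.

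The difference between lines was itself tested. Some difference of the response between the 5 lines was called for 41 of 44 genes, against 68.4% of all genes, and the exceptions were PSMA2, PSMF1 and PSMG4. At the shared dose of 4 µM, the change in A375 minus that in SKMEL28 was called above 0 for 23 genes and below 0 for 1, with backgrounds of 13.4% and 15.1%. A375 minus AU565 was above 0 for 35 genes and below 0 for 1, with backgrounds of 19.3% and 18.7%. SKMEL28 minus AU565 was above 0 for 20 and below 0 for 2, with backgrounds of 18.9% and 15.9%. The median difference was 0.34 for the first pair, 0.68 for the second and 0.28 for the third. The calls below 0 were PSMG3 in the first pair, PSMB4 in the second, and PSMB4 and PSMB10 in the third. A375 minus SKMEL28 had 15 genes above 0 without A375 untreated replicate 2 and 14 when genes with low counts were kept. Its call below 0 was lost without A375 untreated replicate 1, A375 torkinib replicate 1 or 2, SKMEL28 untreated replicate 1 or 2, or SKMEL28 torkinib replicate 1, and also with DESeq2 and with library totals in place of scaling factors. In the second pair 2 genes were below 0 without A375 untreated replicate 2 or SKBR3 untreated replicate 2. In the third, 1 was below 0 without SKMEL28 untreated replicate 1 or 2, SKMEL28 torkinib replicate 1, AU565 untreated replicate 2 or AU565 torkinib replicate 1, and when genes with low counts were kept. These 3 differences share libraries with each other.

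Sequence upstream of the genes is shown because NFE2L1 and related factors bind the antioxidant response element. Its core, TGACNNNGC, was searched on both strands in RefSeq promoter windows (GRCh38.p14) running from 250 bases before to 50 bases after the transcription start. A window was found for 38 of the 44 genes, and PSMA7, PSMB1, PSMB6, PSMB7, PSMD4 and PSMG3 had none. The core occurred in 12 of 38 windows (31.6%), against 13.6% of 27305 windows of all genes. That background takes every gene with a RefSeq window, whether or not it was tested here. CCAAT, the box bound by NF-Y, occurred in 17 (44.7% against 35.7%). TGAGTCA, the AP-1 element, whose reverse complement can overlap the antioxidant core, occurred in 1 (2.63% against 4.92%). The median average change was -0.40 for the 12 genes with the antioxidant core and -0.32 for the 26 without, and a match describes letters only. The 8 stretches below, read 5′ to 3′ along the gene's strand with the core in capitals, belong to the beta subunit with the largest fall among the 44 genes in any line, an assembly chaperone, a base assembly factor (PSMD5), lid subunits and activators. PSME4 carries the core on the opposite strand, so it appears as its reverse complement.
PSMB3, chr17:38752621-38752661, plus strand: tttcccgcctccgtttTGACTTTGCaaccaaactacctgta
PSMG1, chr21:39183610-39183650, minus strand: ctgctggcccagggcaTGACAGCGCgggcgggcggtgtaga
PSMD5, chr9:120843032-120843072, minus strand: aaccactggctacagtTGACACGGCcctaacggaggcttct
PSMD12, chr17:67366718-67366758, minus strand: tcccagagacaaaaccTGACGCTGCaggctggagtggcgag
PSMD3, chr17:39980754-39980794, plus strand: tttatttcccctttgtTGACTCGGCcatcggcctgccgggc
PSME4, chr2:53971003-53971043, minus strand: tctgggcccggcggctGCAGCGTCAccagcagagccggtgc
PSME1, chr14:24136092-24136132, plus strand: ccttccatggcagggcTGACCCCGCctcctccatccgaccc
PSME2, chr14:24146761-24146801, minus strand: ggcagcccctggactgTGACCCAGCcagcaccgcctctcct
Among these genes the average log2 change ran from -0.84 for PSMB3 and -0.68 for PSMG1 through -0.52 for PSMD5 and -0.33 for PSMD12 to 0.11 for PSME1. PSMD9 (-0.38) and PSMG2 (-0.21) also carry the core before the start and are not shown. In PSMD1 (-0.50) and PSMC4 (-0.42) the core lies within or after the start. The part of the core in these changes was not tested.

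Levels of single genes are given below as normalised CPM, replicate 1 then replicate 2. The alpha subunits fell in unison in the breast lines, where all 7 were called lower in SKBR3 and in AU565. PSMA4 had the largest average fall among them. Untreated it stood at 96.2 and 115 CPM in SKMEL28, 172 and 162 in A375, 182 and 178 in 94T778, 137 and 137 in AU565 and 147 and 171 in SKBR3. With torkinib it stood at 62.9 and 69.2 CPM in SKMEL28, 136 and 135 in A375, 144 and 137 in 94T778, 64.3 and 59.9 in AU565 and 107 and 93.2 in SKBR3. In each line both torkinib libraries were below both untreated ones. The average log2 change was -0.63 (SE 0.04, edgeR adjusted p = 2.81e-16), with changes from -0.30 in A375 to -1.14 in AU565. The A375 call was lost without A375 untreated replicate 1.

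PSMA1 had the smallest average change of the alpha subunits. Its untreated levels were 150.4 and 155 CPM in SKMEL28, 85.1 and 80.8 in A375, 141 and 147 in 94T778, 102 and 109 in AU565 and 115 and 118 in SKBR3. The torkinib levels were 148 and 132 CPM in SKMEL28, 93.2 and 75.05 in A375, 163 and 138 in 94T778, 65.6 and 64.6 in AU565 and 88.4 and 90.9 in SKBR3. Groups overlapped in 94T778 and A375 and were separate in SKMEL28, SKBR3 and AU565. PSMA1 fell in SKBR3 (log2 change -0.37, SE 0.10, edgeR adjusted p = 0.00116) and in AU565 (-0.70), while its change was -0.13 in SKMEL28 (edgeR adjusted p = 0.245).

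Beta subunits moved both ways. PSMB6, which holds the caspase-like protease site in standard proteasomes, fell in all 5 lines. It differed little between untreated lines, at 78.01 and 79.4 CPM in SKMEL28, 80.5 and 76.6 in A375, 90.9 and 91.99 in 94T778, 81.9 and 80.3 in AU565 and 86.6 and 76.6 in SKBR3. With torkinib it was 45.2 and 46.9 CPM in SKMEL28, 47.7 and 45.3 in A375, 72.03 and 76.7 in 94T778, 30.6 and 28.9 in AU565 and 30.005 and 32.1 in SKBR3. No torkinib library reached an untreated one of the same line, and the breast lines ended lowest. The log2 change was -0.78 in SKMEL28, -0.75 in A375, -0.30 in 94T778, -1.39 in SKBR3 and -1.45 in AU565, and -0.93 on average (SE 0.04, edgeR adjusted p = 4.89e-21). Scaled to library totals alone the 94T778 call was lost. PSMB3, a structural beta subunit singled out after its values were seen, had the largest fall among the 44 genes in any 1 line. In SKBR3 it went from 84.03 and 75.8 to 27.8 and 24.3 CPM, a log2 change of -1.62 (SE 0.11, edgeR adjusted p = 6.69e-15).

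**Figure D2:**
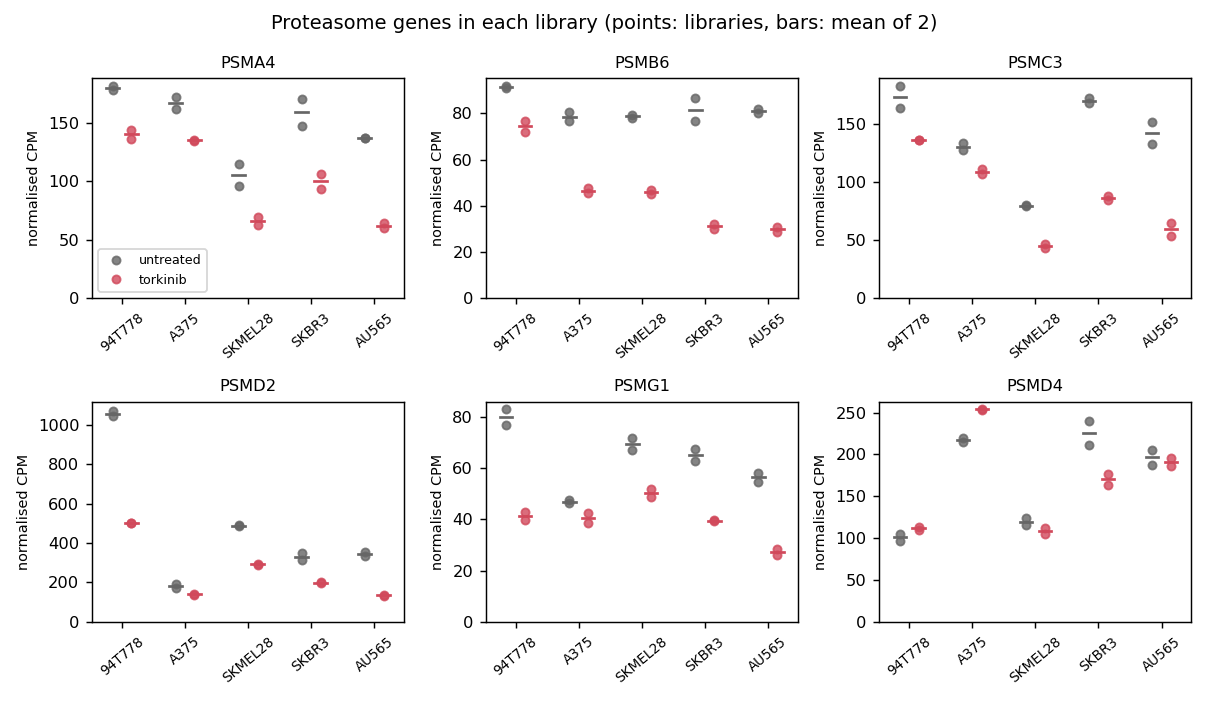
Normalised CPM (vertical axis, from 0) of 6 proteasome genes in each library by line, grey untreated and red torkinib, with a bar at the mean of 2 libraries. PSMB6 lies between 76.6 and 92.0 CPM in all untreated libraries and between 28.9 and 32.1 CPM in the treated breast libraries, PSMD2 stands apart at 1045 and 1068 CPM in untreated 94T778, and PSMD4 is higher with torkinib in A375.

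PSMB10 was called higher in A375, SKBR3 and AU565, and lower in no line. It encodes the inducible trypsin-like beta subunit of immunoproteasomes, which form on interferon stimulation and in immune cells. Untreated levels were 11.3 and 10.9 CPM in SKMEL28, 10.6 and 11.3 in A375, 19.3 and 16.8 in 94T778, 13.8 and 12.5 in AU565 and 43.2 and 35.9 in SKBR3. With torkinib they were 12.8 and 14.1 CPM in SKMEL28, 15.1 and 18.8 in A375, 15.9 and 13.99 in 94T778, 26.4 and 23.1 in AU565 and 114 and 112 in SKBR3. Torkinib libraries lay above the untreated ones in A375, SKMEL28, SKBR3 and AU565 and below them in 94T778. The rise was 1.52 in SKBR3 (SE 0.10, edgeR adjusted p = 3.87e-15), 0.90 in AU565 and 0.61 in A375. The change was 0.27 in SKMEL28 and -0.27 in 94T778 without a call, and the lines differed (edgeR adjusted p = 1.65e-09). The A375 call was lost without A375 torkinib replicate 2.

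The other inducible beta subunits, PSMB9 and PSMB8, stand outside the 44 and serve as comparison. PSMB9 was 2.39 and 2.05 CPM in SKBR3 and 2.66 and 1.92 in AU565 untreated and 15.9 and 17.9 CPM in SKBR3 and 6.66 and 4.98 in AU565 with torkinib. It rose by 2.93 in SKBR3 and 1.29 in AU565 and fell in A375 (-0.84) and in SKMEL28 (-0.69). PSMB8 was 24.3 and 24.1 CPM in untreated SKBR3 and 59.6 and 57.8 CPM with torkinib. It rose by 1.28 there (SE 0.12, edgeR adjusted p = 1.51e-11) and fell in AU565 (-0.31), in A375 (-0.49) and in SKMEL28 (-0.31). Of 5 blood and endothelial markers, summed at 18.9 to 23.0 CPM in untreated SKBR3 and 163 to 170 CPM with torkinib, the higher sum came from the endothelial cadherin CDH5 (162.5 and 169 CPM with torkinib). The leukocyte gene PTPRC had 0 and 1 counts in the untreated SKBR3 libraries and 0 in both torkinib ones, and the globin gene HBB had 0 in all. In AU565 the marker sum was 29.6 to 30.3 CPM untreated and 80.7 to 82.9 CPM with torkinib, and PTPRC had at most 2 counts. The part of CDH5 in these values was not tested. Outside the breast lines, PTPRC had 92 and 109 counts in untreated 94T778 and 88 and 98 there with torkinib.

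**Figure D3:**
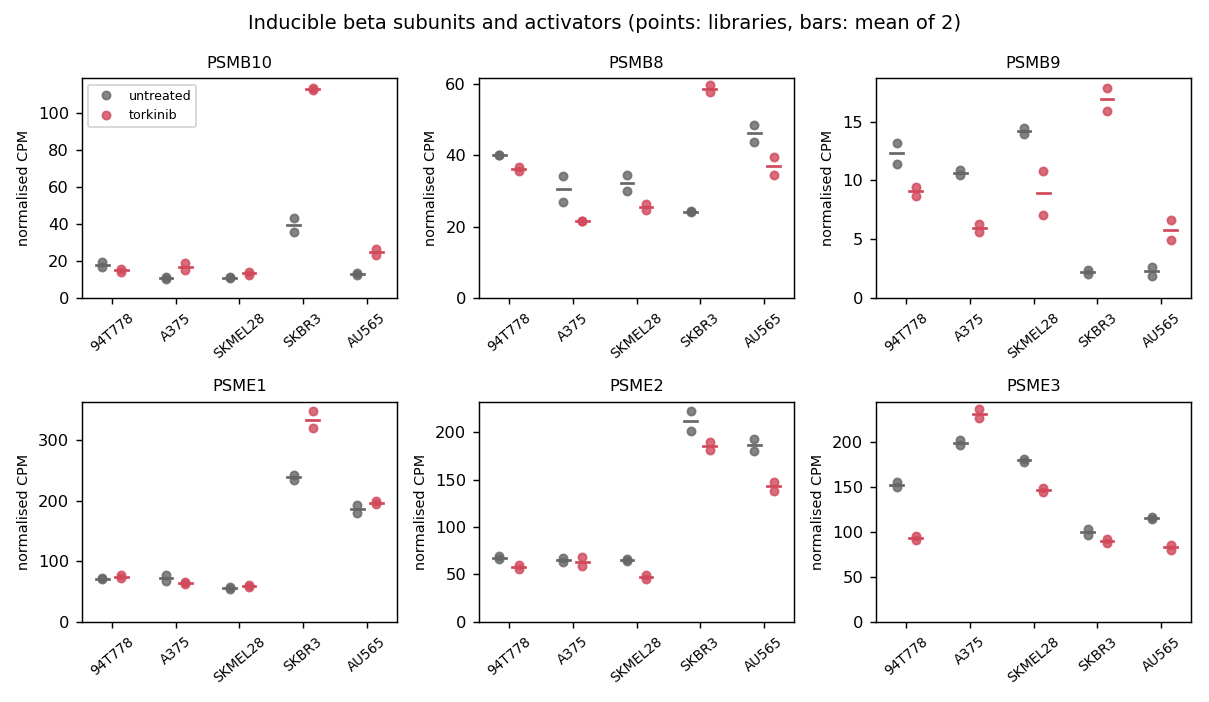
Normalised CPM (vertical axes, from 0) of the inducible beta subunits PSMB10, PSMB8 and PSMB9 and the activators PSME1, PSME2 and PSME3 by line, grey untreated and red torkinib, with a bar at the mean of 2 libraries. PSMB10, PSMB8, PSMB9 and PSME1 are all higher with torkinib in SKBR3, and PSME1 and PSME2 are 179 CPM or more in every untreated breast library.

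PSMB4, a structural beta subunit, was the other beta gene called higher on average, with a change of 0.11. It rose by 0.33 in 94T778 and 0.44 in AU565, with changes of -0.16, -0.03 and -0.03 in A375, SKMEL28 and SKBR3 and no call there. The average call was lost when genes with low counts were kept. PSMB2 fell in all 5 lines, with changes of -0.35 in 94T778 to -0.81 in AU565. PSMB5, which holds the chymotrypsin-like site, fell in 94T778, SKBR3 and AU565, with a change of -0.68 in SKBR3.

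The 6 ATPases, which form the unfolding ring, were all called lower on average and in AU565. PSMC3 had the largest fall. Its untreated levels were 79.2 and 80.2 CPM in SKMEL28, 134 and 128 in A375, 164 and 183 in 94T778, 133 and 152 in AU565 and 172 and 168 in SKBR3. Torkinib levels were 46.6 and 43.5 CPM in SKMEL28, 111 and 107 in A375, 137 and 137 in 94T778, 54.02 and 64.9 in AU565 and 88.6 and 84.4 in SKBR3. The groups were separate in every line, with the widest gaps in the breast lines. PSMC3 fell on average (log2 change -0.73, SE 0.04, edgeR adjusted p = 3.04e-18), with changes from -0.26 in A375, a call lost without A375 untreated replicate 1 or torkinib replicate 2, to -1.25 in AU565.

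PSMC6 had the smallest average change of the ATPases. It was 59.6 and 56.3 CPM in SKMEL28, 61.1 and 53.4 in A375, 103 and 94.5 in 94T778, 87.01 and 98.7 in AU565 and 66.4 and 67.02 in SKBR3 untreated. It was 52.5 and 52.4 CPM in SKMEL28, 59.1 and 61.8 in A375, 105 and 90.2 in 94T778, 65.6 and 68.1 in AU565 and 57.8 and 61.1 in SKBR3 with torkinib. Libraries overlapped in 94T778 and A375, and the clearest gap was in AU565. PSMC6 fell there (log2 change -0.47, SE 0.09, edgeR adjusted p = 4.65e-05), and the 4 other lines gave changes of -0.16 to 0.08 with no call.

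Of the 14 non-ATPases, PSMD2, a scaffold subunit of the base that binds ubiquitin shuttles, had the largest fall. Untreated it was 484 and 492 CPM in SKMEL28, 189.6 and 172 in A375, 1068 and 1045 in 94T778, 354 and 335 in AU565 and 313 and 348 in SKBR3. With torkinib it was 294 and 289 CPM in SKMEL28, 139 and 143 in A375, 499 and 499.99 in 94T778, 132 and 139 in AU565 and 202 and 195 in SKBR3. Every torkinib library was below the untreated ones of its line, and untreated 94T778 stood 5.84 times above untreated A375. The log2 change was -0.74 in SKMEL28, -0.36 in A375, -1.08 in 94T778, -0.74 in SKBR3 and -1.35 in AU565 (SE 0.08, edgeR adjusted p = 3.28e-17). PSMD14, the lid enzyme that removes ubiquitin chains, also fell in all lines, with changes of -0.23 in A375 to -1.13 in AU565.

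PSMD4, a ubiquitin receptor of the regulatory particle, was the non-ATPase with the least average change (-0.04, edgeR adjusted p = 0.362). Untreated levels were 124 and 116 CPM in SKMEL28, 215 and 219.7 in A375, 105 and 97.04 in 94T778, 188 and 206 in AU565 and 239.8 and 212 in SKBR3. Torkinib levels were 105 and 112 CPM in SKMEL28, 253 and 255 in A375, 113 and 110.1 in 94T778, 187 and 196 in AU565 and 164 and 176 in SKBR3. The treated libraries were above the untreated ones in A375 and 94T778, below in SKMEL28 and SKBR3, and overlapped in AU565. PSMD4 fell in SKBR3 (log2 change -0.40, SE 0.08, edgeR adjusted p = 5.23e-05) and rose by 0.23 in A375 (SE 0.08, edgeR adjusted p = 0.0174). The rise was lost without any 1 of the 4 A375 libraries and when genes with low counts were kept.

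PSMD3, a lid subunit, differed more between untreated lines than any other of the genes. Untreated levels were 147 and 133 CPM in SKMEL28, 130.5 and 128 in A375, 139.95 and 131 in 94T778, 973 and 991 in AU565 and 979.5 and 999 in SKBR3. Torkinib levels were 114 and 124 CPM in SKMEL28, 141 and 124 in A375, 145 and 143 in 94T778, 602 and 638 in AU565 and 754 and 728 in SKBR3. The breast libraries lay far above all others with and without torkinib. PSMD3 fell in SKBR3 (-0.42) and in AU565 (log2 change -0.66, SE 0.07, edgeR adjusted p = 7.76e-10), and in SKMEL28 (-0.23), a call lost without replicate 1 of either SKMEL28 group.

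PSMD11, a lid subunit whose rise is known to go with more assembled proteasome in stem cells, showed the opposite order of lines. It was 166 and 171 CPM in SKMEL28, 184 and 179.8 in A375, 154 and 144 in 94T778, 69.99 and 73.1 in AU565 and 73.9 and 75.8 in SKBR3 untreated. It was 97.3 and 102 CPM in SKMEL28, 136 and 149 in A375, 117 and 116 in 94T778, 47.2 and 41.9 in AU565 and 61.997 and 67.6 in SKBR3 with torkinib. Treated libraries were below untreated ones in each line. PSMD11 fell in SKMEL28 (log2 change -0.76, SE 0.08, edgeR adjusted p = 2.68e-10), in AU565 (-0.69) and in A375 and 94T778 (-0.35), while the change of -0.21 in SKBR3 had an edgeR adjusted p of 0.0603.

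PSMC1, an ATPase, was also higher in breast lines. Untreated it was 45.6 and 46.5 CPM in SKMEL28, 49.6 and 42.98 in A375, 44.3 and 46.4 in 94T778, 121 and 139 in AU565 and 149 and 147 in SKBR3. With torkinib it was 38.4 and 34.8 CPM in SKMEL28, 51.3 and 49.7 in A375, 46.9 and 44.98 in 94T778, 106 and 91.1 in AU565 and 127 and 136 in SKBR3. Torkinib libraries were separate and lower in SKMEL28, SKBR3 and AU565 and higher in A375. PSMC1 fell in AU565 (log2 change -0.40, SE 0.09, edgeR adjusted p = 0.000169) and in SKMEL28 (-0.33), a call lost without replicate 2 of either SKMEL28 group. PSMC1 has 13 annotated pseudogenes, the most of the 12 genes that have any, and its level is uncertain for that reason.

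The caps behaved unlike each other. PSME1 and PSME2 encode the alpha and beta chains of the PA28 cap, which is interferon-inducible and partners immunoproteasomes. PSME1 was 53.4 and 56.7 CPM in SKMEL28, 77.7 and 68.04 in A375, 70.4 and 71.6 in 94T778, 179 and 192 in AU565 and 243 and 234 in SKBR3 untreated. It was 61.05 and 57.4 CPM in SKMEL28, 65.4 and 62.6 in A375, 76.6 and 71.7 in 94T778, 199 and 194 in AU565 and 348 and 319 in SKBR3 with torkinib. Only in SKBR3 was PSME1 called, where the torkinib libraries were clearly above the untreated ones, by 0.48 (SE 0.08, edgeR adjusted p = 1.11e-06), and a difference between lines was called (edgeR adjusted p = 0.000145). The average rise of 0.11 was lost without A375 untreated replicate 2 and when genes with low counts were kept.

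PSME2 took the other direction. It was 64.1 and 66.3 CPM in SKMEL28, 67.5 and 63.4 in A375, 69.4 and 66.3 in 94T778, 179.97 and 193 in AU565 and 223 and 201 in SKBR3 untreated. It was 45.2 and 49.3 CPM in SKMEL28, 68.1 and 58.4 in A375, 60.2 and 55.7 in 94T778, 138 and 148 in AU565 and 189.8 and 181 in SKBR3 with torkinib. Treated libraries were lower in 94T778, SKMEL28, SKBR3 and AU565 and overlapped in A375. PSME2 fell in SKMEL28 (-0.47) and in AU565 (log2 change -0.38, SE 0.08, edgeR adjusted p = 0.000118). The calls at -0.23 in 94T778 and -0.19 in SKBR3 were lost under most alternatives.

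PSME3 encodes the nuclear PA28 gamma cap. Untreated levels were 182 and 178 CPM in SKMEL28, 197 and 202 in A375, 156 and 149.8 in 94T778, 115 and 117 in AU565 and 96.9 and 104 in SKBR3. Torkinib levels were 144 and 149.5 CPM in SKMEL28, 227 and 237 in A375, 95.3 and 91.6 in 94T778, 85.4 and 80.6 in AU565 and 87.6 and 92.4 in SKBR3. The A375 torkinib libraries were above the untreated ones and those of the other 4 lines below. PSME3 fell in 94T778 (log2 change -0.71, SE 0.08, edgeR adjusted p = 1.08e-09), in SKMEL28 (-0.29) and in AU565 (-0.48), and rose by 0.21 in A375. That rise was lost without A375 untreated replicate 1 or torkinib replicate 2 and when genes with low counts were kept. The lines differed (edgeR adjusted p = 2.66e-08).

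PSME4 encodes the single-chain PA200 cap. Its untreated levels were 167 and 179.6 CPM in SKMEL28, 218 and 219 in A375, 134 and 139 in 94T778, 262 and 263 in AU565 and 162 and 200.04 in SKBR3. Its torkinib levels were 108 and 102 CPM in SKMEL28, 169.7 and 191 in A375, 110.2 and 104 in 94T778, 141 and 142 in AU565 and 163 and 175 in SKBR3. SKBR3 libraries overlapped and all other lines were separate and lower. PSME4 fell in AU565 (log2 change -0.89, SE 0.08, edgeR adjusted p = 2.03e-11), in SKMEL28 (-0.73), in 94T778 (-0.35) and in A375 (-0.28), the last lost without A375 torkinib replicate 1. PSMF1, the inhibitor PI31, was called only in SKMEL28, where it rose by 0.22, a call lost without SKMEL28 untreated replicate 2 or either torkinib replicate.

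Of the chaperones, which guide assembly of the core rings, PSMG1 had the largest average fall. Untreated it was 66.9 and 71.6 CPM in SKMEL28, 47.4 and 46.3 in A375, 82.9 and 76.7 in 94T778, 54.6 and 58.2 in AU565 and 62.9 and 67.6 in SKBR3. With torkinib it was 51.7 and 48.6 CPM in SKMEL28, 42.7 and 38.6 in A375, 42.8 and 39.6 in 94T778, 28.3 and 25.9 in AU565 and 39.5 and 39.4 in SKBR3. The libraries were separate in all lines, with the gap smallest in A375. PSMG1 fell on average (log2 change -0.68, SE 0.04, edgeR adjusted p = 2.97e-16), in 94T778 (-0.95), AU565 (-1.06), SKBR3 (-0.73) and SKMEL28 (-0.47), and its change in A375 was -0.20 without a call.

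PSMG3 fell in 3 lines. Its untreated levels were 33.04 and 33.1 CPM in SKMEL28, 51.6 and 46.3 in A375, 33.5 and 34.6 in 94T778, 92.004 and 103 in AU565 and 127 and 118 in SKBR3. With torkinib they were 34.1 and 27.9 CPM in SKMEL28, 34.9 and 32.9 in A375, 37.7 and 34.7 in 94T778, 53.8 and 52.3 in AU565 and 61.2 and 64.1 in SKBR3. In A375, SKBR3 and AU565 all torkinib libraries were below the untreated ones. The log2 change was -0.96 in SKBR3 (SE 0.09, edgeR adjusted p = 3.51e-11), -0.87 in AU565 and -0.52 in A375.

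PSMG4, a chaperone that acts on the alpha ring with PSMG3, was 14.5 and 16.8 CPM in SKMEL28, 11.9 and 14.9 in A375, 8.20 and 10.8 in 94T778, 10.96 and 10.02 in AU565 and 18.4 and 18.6 in SKBR3 untreated. It was 15.5 and 15.04 CPM in SKMEL28, 17.7 and 15.4 in A375, 13.6 and 13.4 in 94T778, 14.6 and 10.5 in AU565 and 16.7 and 16.6 in SKBR3 with torkinib. Both treated libraries were higher in 94T778 and A375 and lower in SKBR3. PSMG4 rose in 94T778 by 0.51 (SE 0.18, edgeR adjusted p = 0.0208), a call lost with DESeq2 and without 94T778 untreated replicate 1 or either torkinib replicate, and the average change of 0.17 was not called.

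Core and regulatory genes were then set against each other. On average 13 of 15 core genes were lower and 2 higher, and 19 of 20 regulatory genes were lower and 0 higher. The median change of core genes minus that of regulatory genes was -0.07 in SKMEL28, -0.19 in A375, -0.06 in 94T778, -0.12 in AU565 and -0.09 in SKBR3. Taken over means the difference was 0.0644, -0.11, 0.0534, 0.0389 and 0.014 in the same order, so only A375 kept its sign. The core means include the rise of PSMB10, which was 1.52 in SKBR3 and 0.90 in AU565. Means without PSMB10 were not taken, so the change of sign in the breast lines cannot be read as one of core genes in general. In A375 the regulatory median was 0.02 and the core median -0.16.

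Summed CPM gave another view of the balance. The ratio of core to regulatory CPM in 94T778 went from 0.590 and 0.583 untreated to 0.713 and 0.704 with torkinib. In SKMEL28 it went from 0.673 and 0.667 to 0.770 and 0.780, and in AU565 from 0.589 and 0.591 to 0.646 and 0.637. SKBR3 had 0.648 and 0.629 untreated and 0.673 and 0.674 with torkinib. A375 went the other way, from 0.824 and 0.818 to 0.787 and 0.744. In each line the treated ratios lay beyond both untreated ones. The SKBR3 ratios include PSMB10, at 43.2 and 35.9 CPM untreated and 114 and 112 CPM with torkinib. No ratio without PSMB10 was taken, so the SKBR3 shift cannot be read as one of the other core genes. Without PSMD2, a removal chosen after the values were seen, the 94T778 ratio went from 0.846 and 0.836 to 0.873 and 0.872. With 2 libraries a group the ratio is given as values, with no test.

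**Figure D4:**
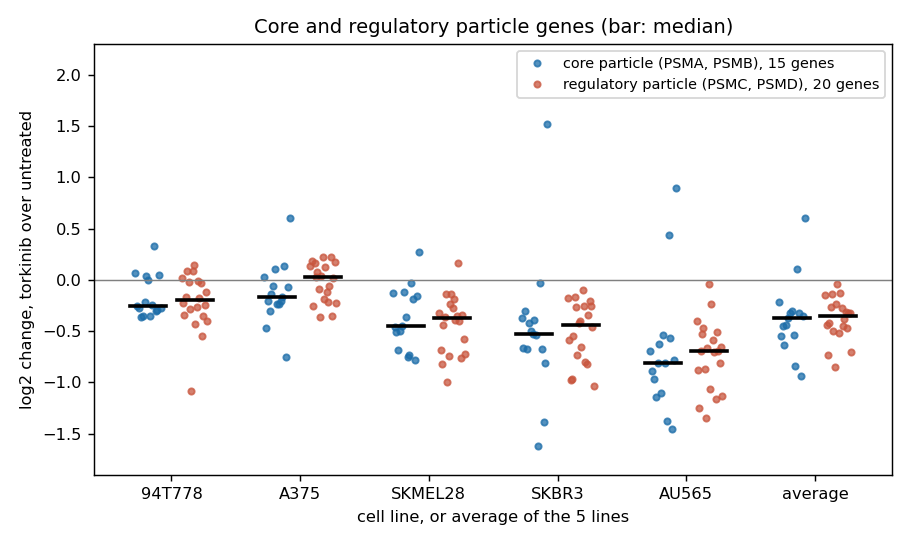
Log2 change with torkinib (vertical axis) of the 15 core genes (blue) and 20 regulatory genes (red) in each line and on the average of the 5 lines, 1 point per gene, with a bar at the median. The core median lies below the regulatory median by 0.19 in A375 and by 0.02 on the average, and the blue point at 1.52 in SKBR3 is PSMB10.

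Untreated lines differed for 43 of 44 genes, all but PSMB6, a share near the 96.3% of all genes tested. In the breast lines against the 3 others, 23 genes (52.3%) were higher and 13 (29.5%) lower, against 38.9% and 39.8% of all genes. A called difference with an absolute log2 value over 1 was found for 8 genes (18.2%), against 46.4% of all genes tested. Higher by more than 1 were PSMD3 (2.87), PSME1 (1.67), PSME2 (1.59), PSMC1 (1.59), PSMG3 (1.52), PSMA3 (1.14) and PSMA6 (1.03). PSMD11 was lower (-1.18, SE 0.05, edgeR adjusted p = 2.65e-21).

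Position of the genes was looked up in RefSeq (GRCh38.p14), a grouping made after the values were seen. The 7 genes on chromosome 14 (PSMA3, PSMA6, PSMB5, PSMC1, PSMC6, PSME1 and PSME2) were all above 0 in the breast lines, with a median difference of 1.14. All 466 genes tested on chromosome 14 had a median of 0.61, and 67.2% of them were above 0, against a median of -0.10 over all 16698 genes. PSMD3 lies on chromosome 17 with 8 protein-coding genes between it and ERBB2, the receptor gene amplified in HER2-positive breast cancer. ERBB2 stood at 7421 to 9856 CPM in untreated breast libraries and 50 to 70 CPM in the other untreated libraries. PSMB3 lies on the same chromosome with 21 protein-coding genes between it and ERBB2, and its log2 difference was -0.24. Gene copy number was not measured here.

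**Figure D5:**
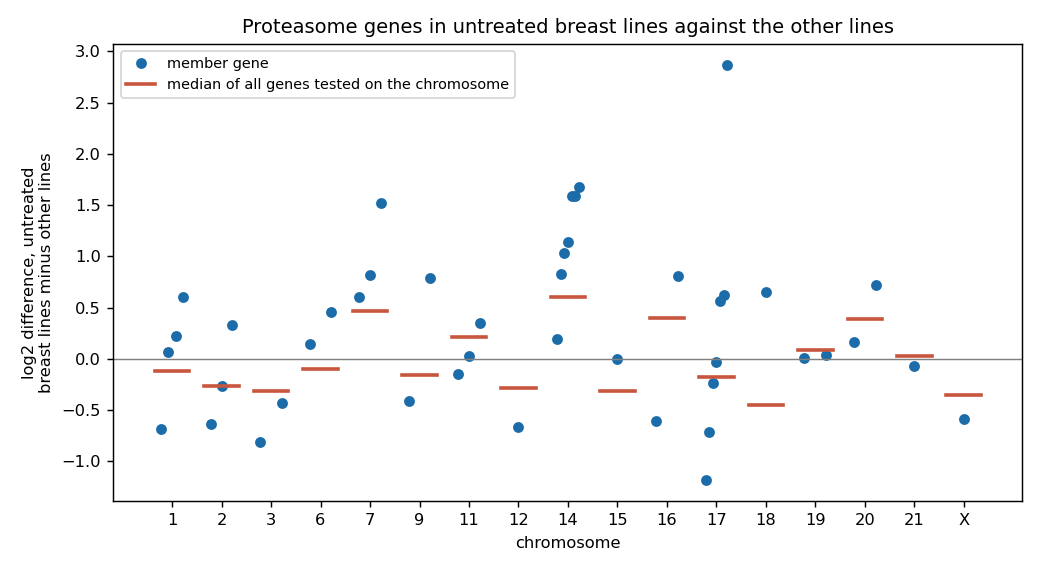
Log2 difference between untreated breast lines and the other untreated lines (vertical axis) for each of the 44 genes by chromosome (horizontal axis); points are genes and red bars the median of all genes tested on the chromosome. All 7 points on chromosome 14 lie above 0, and the point at 2.87 on chromosome 17 is PSMD3.

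Genes that work with the proteasome but lie outside the 44 moved in both directions on average. Of 32 tested cofactors, regulators, ubiquitin genes, activating enzymes and shuttles (PSMB8 and PSMB9 are given above), 12 were higher (37.5%, background 28.4%) and 14 lower (43.8%, background 28.1%), with a median of 0.006. In AU565, 4 were higher (12.5%, background 26.9%) and 16 lower (50%, background 28.6%), with a median of -0.23. Higher and lower counts in the other lines were 9 and 10 in SKMEL28 (background 20.4% and 23.7%), 9 and 11 in A375 (18.5% and 24.3%), 11 and 11 in 94T778 (23.8% each) and 10 and 11 in SKBR3 (24.6% and 26.7%). SHFM1, a small lid subunit also called SEM1, fell on average (log2 change -0.73, SE 0.04, edgeR adjusted p = 3.02e-17), as did UCHL5, a deubiquitinase of the regulatory particle (-0.64). The segregase VCP (-0.46), the activating enzyme UBA6 (-0.64) and IPO9 (-0.47), the importin that carries proteasomes into the nucleus, also fell on average. No call was made for VCP in A375 (0.12), UBA6 in SKBR3 (0.18) or IPO9 in SKMEL28 (-0.13), and each was called lower in every other line. The UBA6 change was -1.75 in 94T778.

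NFE2L1 itself went in opposite directions in different lines. Untreated levels were 492 and 482 CPM in SKMEL28, 330.5 and 338 in A375, 469 and 458 in 94T778, 113 and 109 in AU565 and 114 and 122 in SKBR3. Torkinib levels were 339.9 and 330.2 CPM in SKMEL28, 226 and 235 in A375, 599 and 627 in 94T778, 171 and 176 in AU565 and 154 and 153 in SKBR3. The torkinib libraries were above the untreated ones in 94T778, SKBR3 and AU565 and below in A375 and SKMEL28. NFE2L1 rose by 0.40, 0.38 and 0.64 in 94T778, SKBR3 and AU565 (SE 0.08 and edgeR adjusted p = 3.18e-09 in AU565), and fell in A375 (-0.54) and in SKMEL28 (-0.54). Its average change was 0.07 (edgeR adjusted p = 0.0658). NFE2L1 protein is controlled after translation, and no protein was measured here.

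Counting limits the reading of some genes. In the GENCODE 29 annotation 17 of the 44 genes overlap exons of a gene on the opposite strand and 7 of one on the same strand, and the strand setting of the counts was not given in the sources used here, so reads of PSME1 and EMC9, PSME2 and RNF31, PSME3 and BECN1, PSME4 and ACYP2, PSMC1 and NRDE2, PSMG3 and PSMG3-AS1, PSMC5 and FTSJ3 or PSMD13 and SIRT3 cannot be told apart where they overlap.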

How the data were processed

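Total RNA, isolated with an RNeasy midi kit from Qiagen per the labels' protocols, was sequenced in 20 libraries. The authors deposited whole-number read counts per gene symbol, not normalized, 1 file per library. The submitters' processing notes name HISAT2 2.04, HTSeq 0.6.1, limma 3.34.9 and hg19 (GRCh37). What each did, and which annotation and strand setting were used, was not given in the sources used here. Counted reads were 47.8 to 62.4% of reads, and the counter's summary lines were left out. Not aligned were 16.1 to 30.8%, not unique 9.32 to 15.1%, in no feature 5.43 to 7.83%, of low quality 2.96 to 5.36% and ambiguous 1.08 to 1.57%.

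Counts were fitted in R 4.3.3 with edgeR 4.0.16 (TMM factors, filterByExpr, 10 group means in 1 model, quasi-likelihood tests, Benjamini-Hochberg adjustment over 16698 genes, threshold 0.05). Standard errors are the log2 change divided by the square root of its F value. For the average of the lines, SE and p-value hold the spread between libraries of a group, not the spread between lines or doses. Levels are CPM normalised with the TMM factors; marker sums are normalised alike. The procedure was tested on simulated data, with the same changes in every line, for torkinib against untreated in each line and on average. Tests of differences between lines were not tried there. Whether replicates are separate cultures is not said in the labels, so p-values reflect only how far these libraries vary, which may be technical. Replicate numbers did not pair libraries (correlation of deviations -0.06 to 0.07).

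Given in every library were, per role, the genes with the largest and smallest average change, genes called in opposite directions in 2 lines, and the 6 largest called differences over 1 (log2) in untreated breast lines; of the related list, the 6 smallest p, of which 1 gene is not reported here, and NFE2L1. Genes and lists were chosen with earlier results of these data known. Alternatives were DESeq2 1.42.0, RLE factors, no filter, a replicate term, each line fitted alone, each library left out and, added after seeing the data, library totals without factors.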

Additional observations from a re-analysis of the deposited data

Results flagged for a closer look

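Responses that differed between lines by a test of the difference itself are given here with their values. By edgeR's test of any difference between the 5 responses, 41 of the 44 proteasome genes were called, against 68.4% of all genes. In pairs of lines at the same dose, 24 genes differed between A375 and SKMEL28, 36 between A375 and AU565 and 22 between SKMEL28 and AU565. Of all genes, 13.4% were called above 0 and 15.1% below 0 in the first pair. The shares were 19.3% and 18.7% in the second pair and 18.9% and 15.9% in the third. Among alpha and beta subunits the edgeR adjusted p for any difference was 1.85e-05 for PSMA1, 3.49e-06 for PSMA4, 1.65e-09 for PSMB10 and 1.51e-09 for PSMB6. Among ATPases it was 0.00588 for PSMC6, 1.29e-08 for PSMC3 and 0.00447 for PSMC1. Among non-ATPases it was 6.29e-05 for PSMD4, 9.53e-09 for PSMD2, 4.59e-07 for PSMD3 and 0.000228 for PSMD11. For the caps it was 0.000145 for PSME1, 0.0335 for PSME2, 2.66e-08 for PSME3 and 1.37e-06 for PSME4. For the chaperones it was 6.47e-06 for PSMG1 and 5.28e-08 for PSMG3. PSMD4 and PSME3 were called in opposite directions in different lines, PSMD4 with log2 changes of 0.23 in A375 and -0.40 in SKBR3, and PSME3 with 0.21 in A375 and -0.71 in 94T778.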

How the results depend on the processing

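Counts of proteasome genes called in AU565 and SKBR3, in any difference between lines, in any untreated difference and in the breast contrast stayed within 1.5 times of the reported value under each setting tried. With library totals without factors, chosen after seeing the data, 94T778 had 4 higher and 13 lower, A375 had 6 higher and 6 lower, and A375 minus SKMEL28 had 0 below 0. That scaling moved the median of all genes in 94T778 by 0.10. DESeq2 gave 1 higher in 94T778 and 0 below 0 for A375 minus SKMEL28. Without the filter on low counts A375 and the average each had 1 higher, A375 minus SKMEL28 had 14 above 0, and SKMEL28 minus AU565 had 1 below 0. Fitted alone, A375 had 7 higher and SKMEL28 had 2. The cause was not tested. Core minus regulatory change by means in place of medians was 0.0644 in SKMEL28, -0.11 in A375, 0.053 in 94T778, 0.039 in AU565, 0.014 in SKBR3 and 0.013 on average. RLE factors moved no count by over 1.5 times.

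Leaving out each library in turn gave 0 to 1 higher and 24 to 31 lower in SKMEL28, 0 to 6 and 5 to 15 in A375, 1 to 2 and 16 to 24 in 94T778, 2 to 2 and 36 to 38 in AU565, and 2 to 2 and 29 to 34 in SKBR3. The average had 3 to 4 higher and 38 to 38 lower, and any difference 39 to 43. A375 minus SKMEL28 had 15 to 27 above and 0 to 1 below 0, A375 minus AU565 31 to 37 and 1 to 2, and SKMEL28 minus AU565 15 to 21 and 1 to 2. Untreated differences were 43 to 44, with 23 to 24 higher and 12 to 13 lower in the breast lines. Core minus regulatory medians ran from -0.13 to 0.0076 in SKMEL28, -0.20 to -0.12 in A375, -0.089 to -0.031 in 94T778, -0.12 to -0.083 in AU565, -0.087 to 0.0017 in SKBR3 and -0.033 to 0.015 on average.

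With a replicate block the average had 38 lower and 3 higher, 94T778 had 22 lower, A375 11 and SKBR3 31. Among genes given in every library the block cost PSME2 its calls in 94T778 and SKBR3. Replicates of a group share only a number across groups.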
